A study of Mus musculus with 18 samples.

Results

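Genes that run the cell cycle and copy DNA were followed in lymphatic endothelial cells (LEC), which line lymphatic vessels, and in blood vascular endothelial cells (BEC), which line blood vessels, of mouse embryos. The set names 56 genes and takes the brightest probe row of each that carries a single gene symbol. Of these, 54 were measured, among 19938 genes on the array with such a row. They comprise 10 regulators of the passage from G1 into S phase, 16 replication genes, 22 of 23 mitosis genes and 6 of 7 inhibitors and repressors. The cyclin gene Ccnb1 and the kinase inhibitor gene Cdkn1a have no single-symbol row and are not analysed here. The arrays, 18 in all, are Affymetrix Mouse Gene 1.0 ST and took total RNA of 6 groups, 3 biological replicates in each: LEC of embryonic day 14.5 (E14.5), of E16.5 and of E18.5, and BEC of the same days. The design text describes LEC and BEC matched within 3 litters at each age. The labels call the tissue embryonic and give no organ, strain, genotype or treatment, and the way the cells were separated is given only by citing another publication, which was not used here. Values are on the log2 scale of RMA, a method that corrects, normalizes and summarises the probes of a gene, so a difference of 1 is a 2-fold change. In such bulk samples, fewer cycling cells and less RNA per cycling cell cannot be told apart.

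Cyclins bound to cyclin-dependent kinases move a cell through its cycle. In G1, D-type cyclins with Cdk4 or Cdk6 phosphorylate the retinoblastoma proteins, which frees the E2F factors to switch on the genes of DNA replication. Later, the factors Mybl2 and Foxm1, bound with the MuvB core at promoter elements named CHR, switch on the genes of mitosis, while inhibitors such as Cdkn1b and the repressors E2f7 and E2f8 hold the cycle back. Endothelial cells divide while vessels grow in the embryo and are mostly quiescent in the adult.

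The LEC label was borne out by 9 measured LEC markers, whose summed level was 13.96 to 14.58 on the LEC arrays, against 11.03 to 12.16 on the BEC arrays. On the BEC arrays that sum fell with age, from 11.98 to 12.16 at E14.5 to 11.49 to 11.52 at E16.5 and 11.03 to 11.22 at E18.5. From E14.5 to E18.5 in BEC, 7 of the 9 were called lower (median -1.62), beside 17.3% of all genes. The 10 BEC markers summed to 10.58 to 11.60 on the LEC arrays, against 14.21 to 14.53 on the BEC arrays. Markers of other cells were present too. The 14 macrophage markers summed to 11.50 to 11.74, 12.17 to 12.93 and 12.94 to 13.50 on the LEC arrays, from the earliest age to the latest, against 9.35 to 9.89 on the BEC arrays. The 9 mast cell markers summed to 13.54 to 14.65 on LEC arrays, against 10.22 to 12.67 on BEC arrays, and the 7 leukocyte markers to 11.31 to 12.06 against 8.09 to 10.12. The 11 mural cell markers, of pericytes and smooth muscle, summed to 9.47 to 9.98 on LEC arrays, against 11.31 to 11.45, 11.81 to 11.92 and 12.44 to 12.75 on the BEC arrays of the 3 ages. The 10 keratinocyte markers reached 10.84 to 11.51 in LEC at E18.5, against 9.41 to 9.95 in BEC at that age, and were at most 9.84 before. Markers were summed on the linear scale before the log, so bright markers weigh most. Of the mural markers at E14.5, 6 were called lower in LEC and 1, Pdgfrb, higher (1.14), while Mcam differed most (-3.53, against a median of -0.52). Among the macrophage markers Mrc1 differed most at each age, by 2.829, 4.895 and 5.788. The medians of the 14 were smaller, at 1.28, 2.86 and 3.35, and 2 of the 14 lay below 0 at E14.5, Cd68 lowest (-0.525). Of the 7 leukocyte markers at E18.5, 5 lay above 0 and 2 below, Cd3e lowest (-0.345). The part of these cells in the results was not tested. The spread of values over genes, as the interquartile range, was 3.03 to 3.28 on the E18.5 arrays and 3.33 to 3.70 on the earlier ones. All 54 genes lay above 4.63, a bound for dim genes taken from olfactory receptor genes, on all 18 arrays. On the BEC arrays the macrophage markers Adgre1 and C1qc and the mast cell markers Ms4a2 and Fcer1a had group means below that bound at all 3 ages.

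Most replication and mitosis genes fell between E14.5 and E18.5 in LEC, 35 of 38, beside 21.2% of all genes. In BEC 26 of the 38 fell, beside 17.3% of all genes. These shares of all genes include dim genes, while the 38 all lie above the bound. With dim genes left out, 4322 of 13808 genes were lower in LEC and 3708 in BEC, which are larger shares. By a test of the difference, 12 of the 38 fell further in LEC, beside 3.83% of all genes lower by that test. With dim genes left out, 902 of 13808 genes were lower by it. For Top2a, 1 of the 12, a second probe row with a mean below the bound for dim genes gave a difference of 0.96, the other way. For Tk1, also of the 12, a second row with a mean of 7.18 gave -0.28 (limma, unadjusted p = 0.24). The row used for Tk1 gave -0.62. The medians of both groups overlapped between LEC and BEC at E14.5. The LEC medians were lower already by E16.5, and in both cell types the larger part of the decline lay after that age. At E16.5 and E18.5 the LEC medians stood below those of BEC. The medians of the G1/S regulators and of the inhibitors did not share this course, though 5 of 10 G1/S genes fell in each cell type. The median of the 16 replication genes was 9.37, 9.23 and 9.20 at E14.5, then 8.73, 8.78 and 8.79 at E16.5, then 7.84, 7.96 and 7.92 at E18.5 in LEC. In BEC that median was 9.32, 9.17 and 9.26 at E14.5, then 9.14, 9.14 and 9.11 at E16.5, then 8.36, 8.56 and 8.51 at E18.5. The LEC and BEC arrays overlapped at E14.5, and every LEC array lay below every BEC array at the later ages. For the 22 mitosis genes the median was 9.28, 9.19 and 9.23 at E14.5, then 8.83, 8.83 and 8.79 at E16.5, then 7.96, 8.11 and 8.01 at E18.5 in LEC. The BEC arrays gave 9.27, 9.23 and 9.21 at E14.5, then 9.01, 9.20 and 9.12 at E16.5, then 8.26, 8.66 and 8.53 at E18.5 for it. Here too the arrays overlapped at E14.5 and lay apart afterwards.

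**Figure D1:**
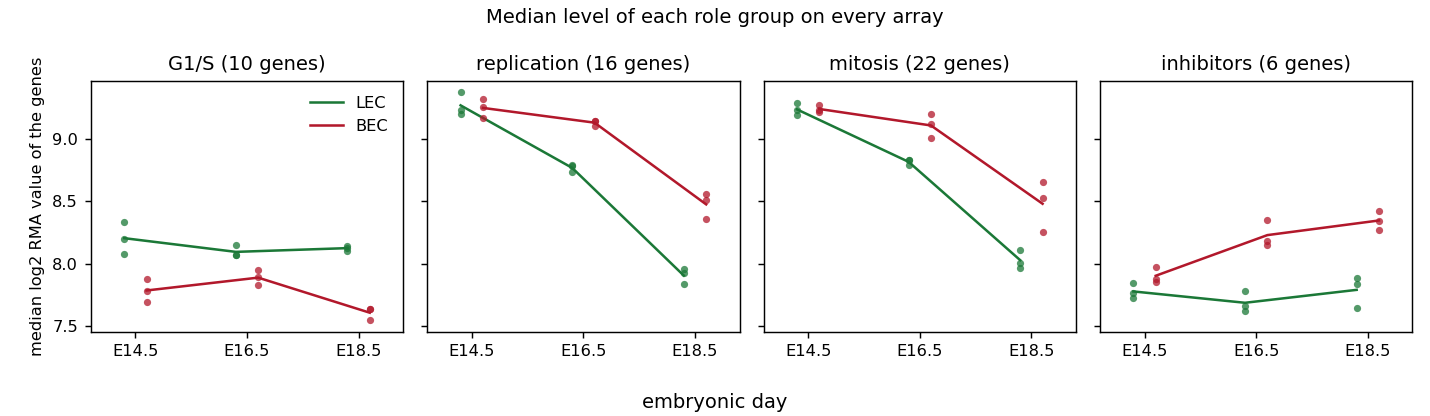
Median log2 RMA value of the genes of each role group (vertical axis) on every array against embryonic day (horizontal axis); each point is 1 array, LEC in green and BEC in red, and lines join group means. The replication and mitosis medians start together at E14.5 and separate, with every LEC array below every BEC array at E16.5 and E18.5.

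A gene was called changed where limma's adjusted p, taken over all 19938 genes, was under 0.05. From E14.5 to E18.5, 42 of 54 genes were lower and 3 higher in LEC (median -0.70), beside 21.2% of all genes lower and 19.7% higher (median 0.04). In BEC 31 were lower and 5 higher over the same ages (median -0.41), beside 17.3% of all genes lower and 13.3% higher (median 0.04). Both cell types called 30 of the falls, which is 71.4% of the LEC falls and 96.8% of the BEC falls. This overlap was not counted over all genes, so it is no result about the set. Of the calls in LEC, 40 of 45 held in all 26 alternative analyses, and in BEC 29 of 36.

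The changes were also taken step by step. From E14.5 to E16.5, LEC had 22 genes lower and 2 higher (median -0.28), beside 5.72% of all genes lower and 8.07% higher (median -0.03). BEC had 5 lower and 3 higher in that step (median -0.06), beside 4.66% lower and 5.10% higher among all genes (median -0.05). The BEC count of 8 calls changed when single arrays were left out. It came to 2 genes without BEC E16.5 replicate 2, to 3 without BEC E14.5 replicate 1, BEC E14.5 replicate 3 or BEC E16.5 replicate 3, to 4 without BEC E14.5 replicate 2 or BEC E16.5 replicate 1, and to 5 without LEC E14.5 replicate 2 and likewise without LEC E16.5 replicate 3. Its median turned to 0.01 when the arrays were set to a common median. From E16.5 to E18.5, LEC had 33 lower and 4 higher (median -0.40), beside 18.5% of all genes lower and 15.9% higher. BEC had 26 lower and 1 higher (median -0.30), beside 16.4% lower and 15.8% higher. With dim genes left out, 1399 of 13808 genes were lower in LEC and 1107 in BEC from E14.5 to E16.5. From E16.5 to E18.5 these counts were 3866 and 3531, with medians of -0.06 and -0.04.

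**Figure D2:**
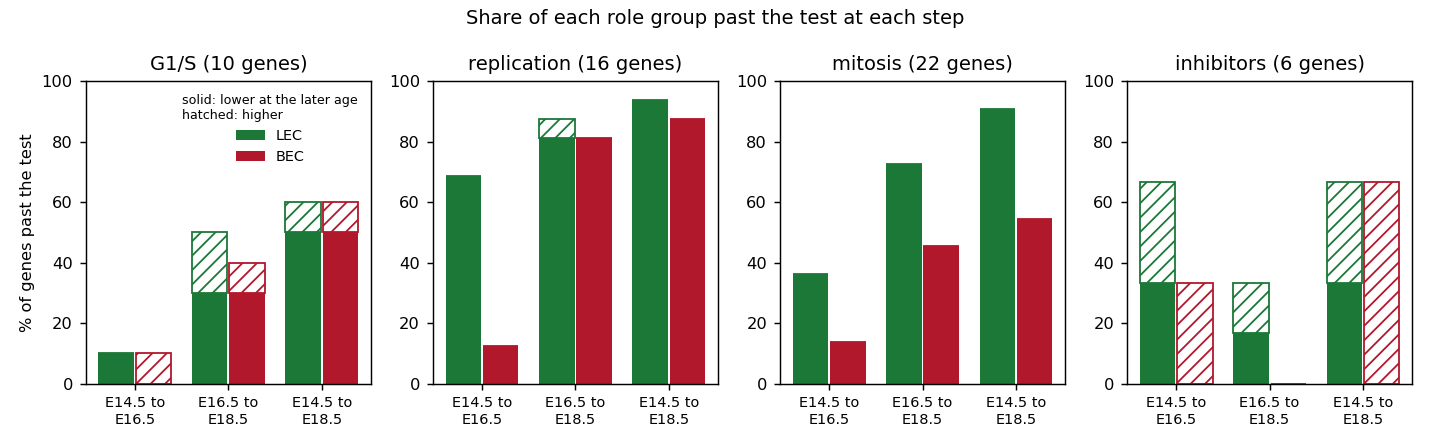
Share of the genes of each role group with an adjusted p under 0.05 (vertical axis, percent) from E14.5 to E16.5, from E16.5 to E18.5 and over both steps (horizontal axis), LEC in green beside BEC in red; solid bars are genes lower and hatched bars, stacked on them, genes higher at the later age. From E14.5 to E16.5, 11 of 16 replication and 8 of 22 mitosis genes are lower in LEC, against 2 and 3 in BEC. Of all genes, 5.72% are lower in LEC and 4.66% in BEC in that step.

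Promoters are shown for a few genes of these 2 falling groups, because their known activators read different elements: E2F sites for replication and CHR elements for mitosis. The sequences are the 160 bases before the transcription start in RefSeq on GRCm38.p6, read 5′ to 3′ on the gene's strand, with capitals marking E2F letters (TTTCCCGC, TTTGGCGC, TTTCGCGC or TTTGCCGC), CHR letters (TTTGAA or TTCGAA) and the CCAAT box on either strand.
Mcm6 (chr1:128359706-128359865, minus strand): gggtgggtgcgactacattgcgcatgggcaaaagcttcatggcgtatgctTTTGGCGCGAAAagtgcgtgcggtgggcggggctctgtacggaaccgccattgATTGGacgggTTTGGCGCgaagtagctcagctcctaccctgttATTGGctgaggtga
Pcna (chr2:132253181-132253340, minus strand): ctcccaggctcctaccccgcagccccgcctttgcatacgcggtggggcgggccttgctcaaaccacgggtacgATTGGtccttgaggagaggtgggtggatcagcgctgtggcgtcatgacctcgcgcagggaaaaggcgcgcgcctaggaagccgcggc
Cdk1 (chr10:69352913-69353072, minus strand): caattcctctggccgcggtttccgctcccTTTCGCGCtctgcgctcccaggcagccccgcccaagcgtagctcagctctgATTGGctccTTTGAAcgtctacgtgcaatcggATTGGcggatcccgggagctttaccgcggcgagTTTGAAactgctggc
Top2a (chr11:99024190-99024349, minus strand): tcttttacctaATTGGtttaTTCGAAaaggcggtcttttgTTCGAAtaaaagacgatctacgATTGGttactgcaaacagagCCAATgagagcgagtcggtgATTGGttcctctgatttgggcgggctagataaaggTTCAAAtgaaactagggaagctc
Cdc20 (chr4:118437344-118437503, minus strand): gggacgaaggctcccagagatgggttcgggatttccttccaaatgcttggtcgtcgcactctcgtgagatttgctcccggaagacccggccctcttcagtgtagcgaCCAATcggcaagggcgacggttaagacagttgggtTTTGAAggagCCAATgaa
Kif11 (chr19:37376222-37376381, plus strand): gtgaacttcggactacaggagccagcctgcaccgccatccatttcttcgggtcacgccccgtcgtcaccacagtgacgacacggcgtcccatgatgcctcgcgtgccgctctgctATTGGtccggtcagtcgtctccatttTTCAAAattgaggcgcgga
Mcm6, a subunit of the replicative helicase, holds 3 E2F matches, 2 of which overlap, and 2 CCAAT boxes. Pcna, the sliding clamp of the polymerases and the one replication gene called lower in neither cell type, holds 1 CCAAT box and no match to the E2F or CHR letters in this window. The promoters of Rrm2 and Mcm10, which fell in both cell types, likewise held CCAAT boxes and no match to those letters. Whether the matches go with the falls was not tested. Cdk1, the kinase that starts mitosis, holds 1 E2F match, 2 CHR matches and 2 CCAAT boxes. Top2a, which untangles chromosomes, holds 3 CHR matches and 4 CCAAT boxes, and 10 bases of its window lie inside the annotated gene. Cdc20, which activates the anaphase-promoting complex, holds 1 CHR match and 2 CCAAT boxes, and the spindle motor gene Kif11 holds 1 of each. RefSeq promoters, each running a little past the start, were matched for 42 of the 54 genes (46 promoters). CHR letters occurred in 13 of 17 mitosis promoters (76.5%) and 2 of 14 replication promoters (14.3%), beside 19.2% of all 32851 promoters. E2F letters occurred in 6 of 14 replication promoters (42.9%) and 1 of 17 mitosis promoters (5.9%), beside 2.3% of all. CCAAT boxes occurred in 82.4% of the mitosis and 71.4% of the replication promoters, beside 37.4%. These are matches of letters, not sites shown to be bound.

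Among the 16 replication genes, 15 fell from E14.5 to E18.5 in LEC (median -1.13) and 14 in BEC (median -0.69), with no gene higher. The shares of all genes lower were 21.2% in LEC and 17.3% in BEC. Rrm2, the regulated subunit of ribonucleotide reductase, which makes DNA building blocks, read 9.43, 9.31 and 9.26 at E14.5, then 8.64, 8.77 and 8.72 at E16.5, then 7.92, 7.85 and 7.95 at E18.5 in LEC. The BEC arrays read 9.39, 9.38 and 9.49 at E14.5, then 9.24, 9.41 and 9.21 at E16.5, then 8.80, 8.85 and 8.84 at E18.5. LEC and BEC overlapped at E14.5, and at both later ages all 3 LEC arrays lay below all 3 BEC arrays. By E18.5 Rrm2 had changed in LEC by -1.43 ± 0.09 (adjusted p = 8.7e-10), against -0.59 ± 0.09 for BEC (adjusted p = 4.6e-05). LEC was below BEC by 0.92 at E18.5 (limma difference -0.92 ± 0.09, adjusted p = 1.2e-07). Tyms, the thymidylate synthase gene, gave 8.83, 8.57 and 8.74 at E14.5, then 8.12, 8.26 and 7.80 at E16.5, then 7.46, 7.66 and 7.27 at E18.5 in LEC. BEC arrays gave 8.70, 8.56 and 8.60 at E14.5, then 8.34, 8.69 and 8.29 at E16.5, then 8.30, 8.34 and 7.96 at E18.5. The 2 cell types overlapped at E14.5 and not later. LEC minus BEC gave 0.10 at E14.5 and -0.38 at E16.5, neither called. By E18.5 that difference was -0.73 ± 0.15 (adjusted p = 0.00061). Within LEC Tyms fell by 1.25 to E18.5, and within BEC its -0.42 lost its call without any BEC E14.5 array or without BEC E18.5 replicate 3 (smallest value -0.30).

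The Mcm genes encode the helicase that unwinds DNA at replication origins, and all 6 core subunits fell in both cell types. Mcm5 read 9.56, 9.38 and 9.43 at E14.5, then 8.82, 8.80 and 8.86 at E16.5, then 7.75, 8.07 and 7.90 at E18.5 in LEC. BEC values of Mcm5 were 9.48, 9.44 and 9.43 at E14.5, then 9.26, 9.19 and 9.14 at E16.5, then 8.21, 8.48 and 8.38 at E18.5. The ages did not overlap in either cell type. Mcm5 changed by -1.55 ± 0.10 to E18.5 in LEC and by -1.10 ± 0.10 in BEC, and its difference between the cell types was 0.00 at E14.5, -0.37 ± 0.10 at E16.5 and, by E18.5, -0.45 ± 0.10. Mcm2 read 10.02, 9.96 and 9.90 at E14.5, then 9.38, 9.41 and 9.46 at E16.5, then 8.36, 8.68 and 8.50 at E18.5 in LEC. BEC values of Mcm2 were 9.86, 9.83 and 9.87 at E14.5, then 9.59, 9.46 and 9.49 at E16.5, then 8.72, 8.93 and 8.78 at E18.5. It fell in both steps in LEC (-0.54 and -0.91). At E18.5 every LEC array lay below every BEC array (-0.29), a call lost without LEC E18.5 replicate 1 (-0.21), LEC E18.5 replicate 3 (-0.28) or BEC E18.5 replicate 2 (-0.23). Over E14.5 to E18.5 the other subunits changed by -1.48 for Mcm7, -1.02 for Mcm6, -0.91 for Mcm3 and -0.63 for Mcm4 in LEC. In BEC these values were -0.86, -0.78, -0.75 and -0.46, in the same order.

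The loading and initiation factors fell as well. Cdt1, which loads the helicase, changed by -1.30 in LEC and -0.84 in BEC, and its partner Cdc6 by -0.45 and -0.71. The LEC call of Cdc6 was lost without replicate 1 (-0.45) or 3 (-0.42) of LEC E14.5 and without replicate 1 of LEC E18.5 (-0.34). Gins1, part of the active helicase, changed by -1.51 and -1.28, Gins2 by -0.65 and -0.41, and the initiation factor Mcm10 by -0.86 and -0.51, LEC first in each case and all called, though with quantile normalization the BEC value of Gins2 was -0.28 and no longer called. Tk1, the thymidine kinase of S phase, changed by -1.29 in LEC and -0.67 in BEC. Its second probe row gave -1.20 and -0.92. Rrm1, the other subunit of ribonucleotide reductase, fell in LEC (-0.44) and gave -0.19 in BEC, not called. Pcna, whose promoter is shown above, read 11.26, 11.11 and 11.24 at E14.5, then 11.05, 11.20 and 10.97 at E16.5, then 11.50, 11.38 and 11.32 at E18.5 in LEC. BEC arrays read 11.18, 10.90 and 11.08 at E14.5, then 11.17, 11.22 and 10.998 at E16.5, then 11.21, 10.98 and 10.99 at E18.5 for it. The LEC arrays of E18.5 were its highest of all 18, and the BEC ages overlapped. From E16.5 to E18.5 Pcna rose in LEC (0.33 ± 0.11, adjusted p = 0.026), a call lost without LEC E16.5 replicate 1 (0.31), LEC E16.5 replicate 3 (0.27) or LEC E18.5 replicate 1 (0.27), with array weights (0.33) and when the fit held only the groups compared. Over E14.5 to E18.5 its value moved in LEC by 0.20 ± 0.11 (adjusted p = 0.16) and in BEC by 0.01 ± 0.11 (adjusted p = 0.98), neither called, and a second probe row of Pcna gave 0.16 and 0.00. Pcna was the only replication gene called higher in LEC at E18.5 (0.34 ± 0.11, adjusted p = 0.022), a call lost without LEC E18.5 replicate 1 (0.29), BEC E18.5 replicate 2 (0.30) or BEC E18.5 replicate 3 (0.31).

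**Figure D3:**
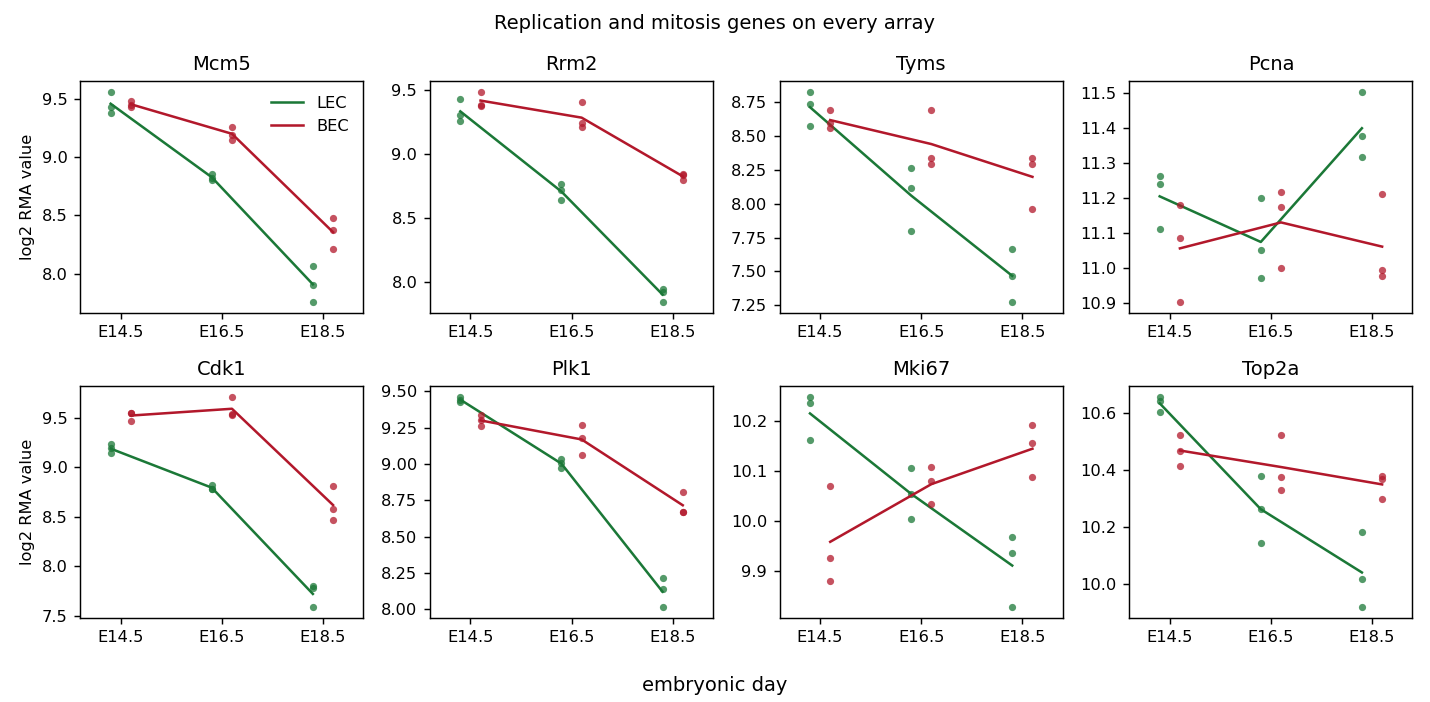
Log2 RMA values (vertical axes, scaled for each gene) of 4 replication genes and 4 mitosis genes on every array at each age; points are arrays, LEC in green and BEC in red, and lines join group means. Rrm2, Tyms, Cdk1 and Plk1 fall further in LEC. Over E14.5 to E18.5 Pcna is called in neither cell type, and Mki67 is called lower in LEC and not called in BEC.

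Among the 22 mitosis genes, 20 fell from E14.5 to E18.5 in LEC (median -0.74) and 12 in BEC (median -0.36). The shares of all genes lower were 21.2% in LEC and 17.3% in BEC. Cdk1, the mitotic kinase, read 9.23, 9.14 and 9.19 at E14.5, then 8.82, 8.78 and 8.78 at E16.5, then 7.59, 7.78 and 7.80 at E18.5 in LEC. BEC arrays read 9.55, 9.54 and 9.47 at E14.5, then 9.54, 9.71 and 9.53 at E16.5, then 8.58, 8.81 and 8.47 at E18.5 for Cdk1. Every LEC array lay below every BEC array at each age, and the E18.5 arrays lay below all earlier ones within each cell type. The change to E18.5 was -1.47 ± 0.10 in LEC and -0.90 ± 0.10 in BEC. The difference between the cell types was -0.33 at E14.5, -0.80 ± 0.10 at E16.5 and, by E18.5, -0.90 ± 0.10, the first no longer called without any LEC E14.5 array or without BEC E14.5 replicate 1 or 2 (smallest value -0.31). Plk1, a kinase of spindle assembly and mitotic exit, read 9.46, 9.43 and 9.44 at E14.5, then 9.03, 8.97 and 9.004 at E16.5, then 8.01, 8.21 and 8.13 at E18.5 in LEC. BEC arrays read 9.26, 9.33 and 9.30 at E14.5, then 9.06, 9.27 and 9.18 at E16.5, then 8.67, 8.81 and 8.67 at E18.5 for Plk1. LEC lay above BEC on all arrays at E14.5, without a call, and below it on all arrays at E16.5 and E18.5. Plk1 fell by 1.32 in LEC and by 0.58 in BEC to E18.5, when LEC was lower (-0.60 ± 0.09, adjusted p = 3.1e-05).

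Aurkb, the kinase of the chromosomal passenger complex, read 9.40, 9.27 and 9.37 at E14.5, then 8.85, 8.87 and 8.81 at E16.5, then 7.78, 7.97 and 8.02 at E18.5 in LEC. BEC arrays read 9.27, 9.39 and 9.45 at E14.5, then 8.95, 9.14 and 9.05 at E16.5, then 8.32, 8.53 and 8.56 at E18.5 for Aurkb. Within each cell type the arrays of each age lay below those of the age before, and by E18.5 Aurkb had changed by -1.42 ± 0.10 in LEC and by -0.90 ± 0.10 in BEC. Ccnb2, a B-type cyclin that binds Cdk1, read 10.02, 9.88 and 9.79 at E14.5, then 9.88, 9.84 and 9.78 at E16.5, then 9.25, 9.25 and 9.24 at E18.5 in LEC. BEC arrays read 9.52, 9.69 and 9.72 at E14.5, then 9.71, 9.86 and 9.75 at E16.5, then 9.53, 9.70 and 9.43 at E18.5 for Ccnb2. In LEC only the E18.5 arrays stood lower (-0.65 ± 0.10, adjusted p = 2.8e-05), while the BEC ages overlapped (-0.09 ± 0.10, not called). At E18.5 it was lower in LEC (-0.31), a call lost without BEC E18.5 replicate 2 (-0.23).

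Mki67 encodes Ki-67, the protein most used as a stain for cycling cells, and its row changed little. It read 10.25, 10.23 and 10.16 at E14.5, then 10.05, 10.11 and 10.004 at E16.5, then 9.97, 9.94 and 9.83 at E18.5 in LEC. BEC arrays read 9.93, 10.07 and 9.88 at E14.5, then 10.04, 10.08 and 10.11 at E16.5, then 10.09, 10.15 and 10.19 at E18.5 for Mki67. LEC fell with age (-0.30 ± 0.09, adjusted p = 0.0086), a call lost when the fit held only those 2 groups, and the BEC arrays of E18.5 all lay above those of E14.5 without a call (0.19 ± 0.09). At E18.5 the difference was -0.23 ± 0.09 (adjusted p = 0.049), and that call was lost in 19 of 27 alternatives, 16 of them the omission of a single array. Top2a, whose promoter is shown above, read 10.64, 10.60 and 10.66 at E14.5, then 10.26, 10.38 and 10.14 at E16.5, then 10.02, 10.18 and 9.92 at E18.5 in LEC. BEC arrays read 10.52, 10.41 and 10.47 at E14.5, then 10.33, 10.52 and 10.38 at E16.5, then 10.37, 10.30 and 10.38 at E18.5 for Top2a. It fell in LEC by 0.59 to E18.5 and gave -0.12 ± 0.10 in BEC, not called. A second, dim probe row of Top2a, with a mean of 3.04, gave -0.11 in LEC and -1.07 in BEC over these ages, so on it the larger fall was in BEC. With both rows averaged the LEC change was -0.35, no longer called, and the BEC change -0.59, called. That average also turned the E18.5 difference between the cell types (-0.31) to 0.06. That call was also lost without LEC E18.5 replicate 3 (-0.25) or BEC E18.5 replicate 3 (-0.29).

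The remaining mitosis genes cover the transcription factors, the spindle checkpoint, the anaphase machinery and the motors. Mybl2, the B-Myb factor that activates mitosis genes, changed by -1.49 in LEC and -1.13 in BEC and was lower in LEC at all 3 ages (-0.50, -0.61 and -0.86). The E14.5 call of Mybl2 was lost without replicate 2 (-0.47) or 3 (-0.43) of LEC E14.5 and without replicate 1 or 3 of BEC E14.5 (both -0.47). Foxm1, its successor on those promoters, fell in LEC (-0.67) and gave -0.26 in BEC, not called. The checkpoint kinase genes Bub1 and Bub1b changed by -1.26 and -1.16 in LEC, against -0.80 and -0.56 in BEC. Cdc20 and Ube2c, which drive the anaphase-promoting complex, changed by -1.17 and -1.06 in LEC, against -1.01 and -0.67 in BEC. Birc5, which encodes survivin, changed by -0.91 ± 0.15 in LEC and -0.91 ± 0.15 in BEC. Among the motors, Kif20a fell in both cell types (-0.77 and -0.54), whereas Kif11 (-0.76) and Kif23 (-0.53) fell in LEC and were not called in BEC (-0.28 and -0.04). Aurka and Tpx2, which act together at the spindle poles, fell in LEC (-0.69 and -0.73) and in BEC (-0.38 and -0.35), the Tpx2 call in BEC being lost in 11 of 26 alternatives, 10 of them the omission of 1 array. Ccna2, the cyclin of S phase and G2, fell in LEC (-0.56) and gave 0.06 in BEC. The centromere protein gene Cenpf fell in LEC (-0.52) and gave -0.22 in BEC. Cenpe (-0.27 and -0.12) and Nusap1 (-0.19 and -0.04), which act at kinetochores and spindle fibres, were called in neither.

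**Figure D4:**
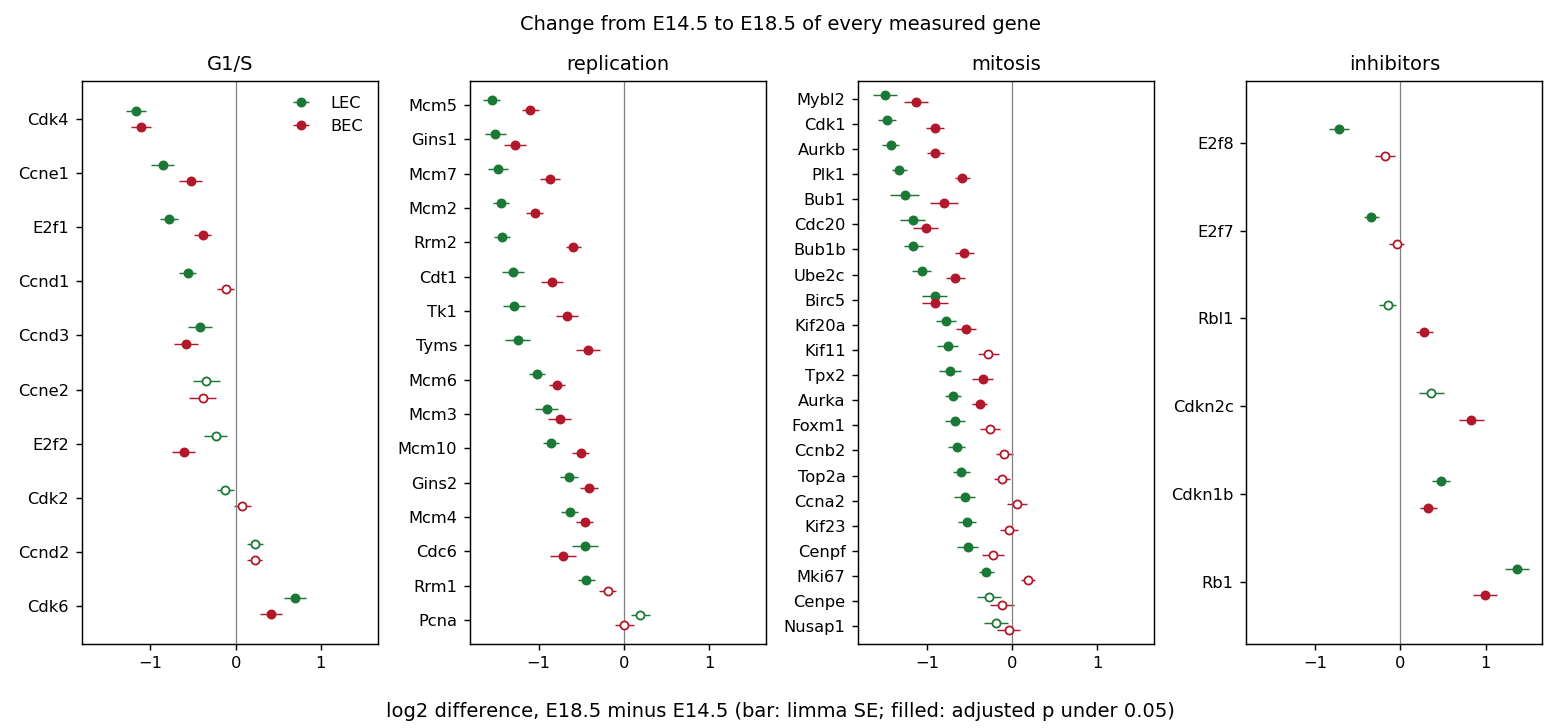
Change from E14.5 to E18.5 (horizontal axis, log2, E18.5 minus E14.5) of each of the 54 genes in the 4 role groups, LEC in green above BEC in red; bars are limma standard errors and filled points have an adjusted p under 0.05. The mitosis genes lie further to the left in LEC than in BEC, apart from Birc5, whose points nearly coincide, while Rb1, Cdk6 and Cdkn1b lie to the right of 0 in both.

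The 10 G1/S regulators moved in different directions. From E14.5 to E18.5, 5 were lower and 1 higher in LEC, beside 21.2% of all genes lower and 19.7% higher. In BEC 5 were likewise lower and 1 higher, beside 17.3% and 13.3%. Of the 5 falls, 4 were shared, an overlap not counted over all genes. The largest contrast of the G1/S regulators was between the cell types and stood at every age. Ccnd1, the cyclin D1 gene, read 9.83, 10.003 and 9.90 at E14.5, then 9.55, 9.76 and 9.77 at E16.5, then 9.25, 9.35 and 9.45 at E18.5 in LEC. BEC arrays read 11.33, 11.31 and 11.40 at E14.5, then 11.36, 11.32 and 11.38 at E16.5, then 11.08, 11.25 and 11.36 at E18.5 for Ccnd1. All 9 LEC arrays lay below all 9 BEC arrays. The Ccnd1 difference was -1.44 ± 0.10, -1.66 ± 0.10 and -1.88 ± 0.10 from the earliest age to the latest (adjusted p = 3e-11 at E18.5). Ccnd1 fell with age in LEC (-0.56 ± 0.10) and gave -0.12 ± 0.10 in BEC, not called. Ccnd2, which encodes a second D-type cyclin, ran the other way and read 10.78, 10.72 and 10.75 at E14.5, then 10.48, 10.54 and 10.62 at E16.5, then 10.95, 11.01 and 10.97 at E18.5 in LEC. BEC arrays read 10.42, 10.22 and 10.42 at E14.5, then 10.21, 10.24 and 10.22 at E16.5, then 10.46, 10.56 and 10.71 at E18.5 for Ccnd2. LEC lay above BEC on all arrays at each age (0.40, 0.33 and 0.40), though the E16.5 call was lost without LEC E16.5 replicate 3 (0.29) and with a common median (0.22). Ccnd3, the third D-type cyclin gene, read 7.34, 7.28 and 7.16 at E14.5, then 6.95, 7.16 and 7.21 at E16.5, then 7.10, 6.48 and 6.92 at E18.5 in LEC. BEC arrays read 7.63, 7.92 and 7.72 at E14.5, then 7.64, 7.42 and 7.64 at E16.5, then 7.09, 7.33 and 7.09 at E18.5 for Ccnd3. It fell with age in BEC (-0.59 ± 0.14). The LEC change of -0.42 was called but lost without replicate 1 (-0.38) or 2 (-0.41) of LEC E14.5 or without replicate 2 of LEC E18.5 (-0.25).

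The partner kinases differed as well. Cdk6 was higher in LEC at all 3 ages, by 0.91 ± 0.13, 0.95 ± 0.13 and 1.18 ± 0.13, and rose with age in LEC (0.69) and BEC (0.42). The BEC call was lost without replicate 2 (0.35) or 3 (0.34) of BEC E14.5 and without replicate 1 (0.38) or 3 (0.39) of BEC E18.5. Cdk4 read 11.75, 11.75 and 11.77 at E14.5, then 11.52, 11.51 and 11.54 at E16.5, then 10.37, 10.53 and 10.87 at E18.5 in LEC. BEC arrays read 11.87, 11.65 and 11.88 at E14.5, then 11.62, 11.67 and 11.50 at E16.5, then 10.59, 10.58 and 10.89 at E18.5 for Cdk4. LEC and BEC overlapped at each age, and within both cell types the E18.5 arrays lay below all others. Cdk4 changed by -1.17 ± 0.12 in LEC and -1.11 ± 0.12 in BEC, nearly all of it after E16.5 (-0.93 and -0.91). Cdk2, the kinase of cyclin E, was called in no comparison. Of its cyclins, Ccne1 fell in LEC (-0.85) and BEC (-0.53), and Ccne2 was called in none. E2f1, the activating E2F, read 7.23, 7.14 and 7.08 at E14.5, then 6.88, 6.94 and 7.06 at E16.5, then 6.37, 6.48 and 6.26 at E18.5 in LEC. BEC arrays read 7.54, 7.84 and 7.73 at E14.5, then 8.01, 8.11 and 7.96 at E16.5, then 7.33, 7.28 and 7.35 at E18.5 for E2f1. All LEC arrays lay below all BEC arrays of the same age, by -0.55 ± 0.10, -1.06 ± 0.10 and -0.95 ± 0.10. From E14.5 to E16.5, its BEC value moved by 0.32 (adjusted p = 0.049), a call lost in 15 of 27 alternatives, and by E18.5 it had fallen in LEC (-0.78) and BEC (-0.38), the BEC value being -0.26 and no longer called with quantile normalization. E2f2, a second activator, read 6.54, 6.48 and 6.45 at E14.5, then 6.42, 6.57 and 6.60 at E16.5, then 6.55, 6.35 and 5.87 at E18.5 in LEC. BEC arrays read 6.51, 6.66 and 6.80 at E14.5, then 6.43, 6.18 and 6.36 at E16.5, then 6.18, 5.98 and 5.98 at E18.5 for E2f2. It fell with age in BEC (-0.61 ± 0.14, adjusted p = 0.0022) and gave -0.24 ± 0.14 in LEC, where the ages overlapped.

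**Figure D5:**
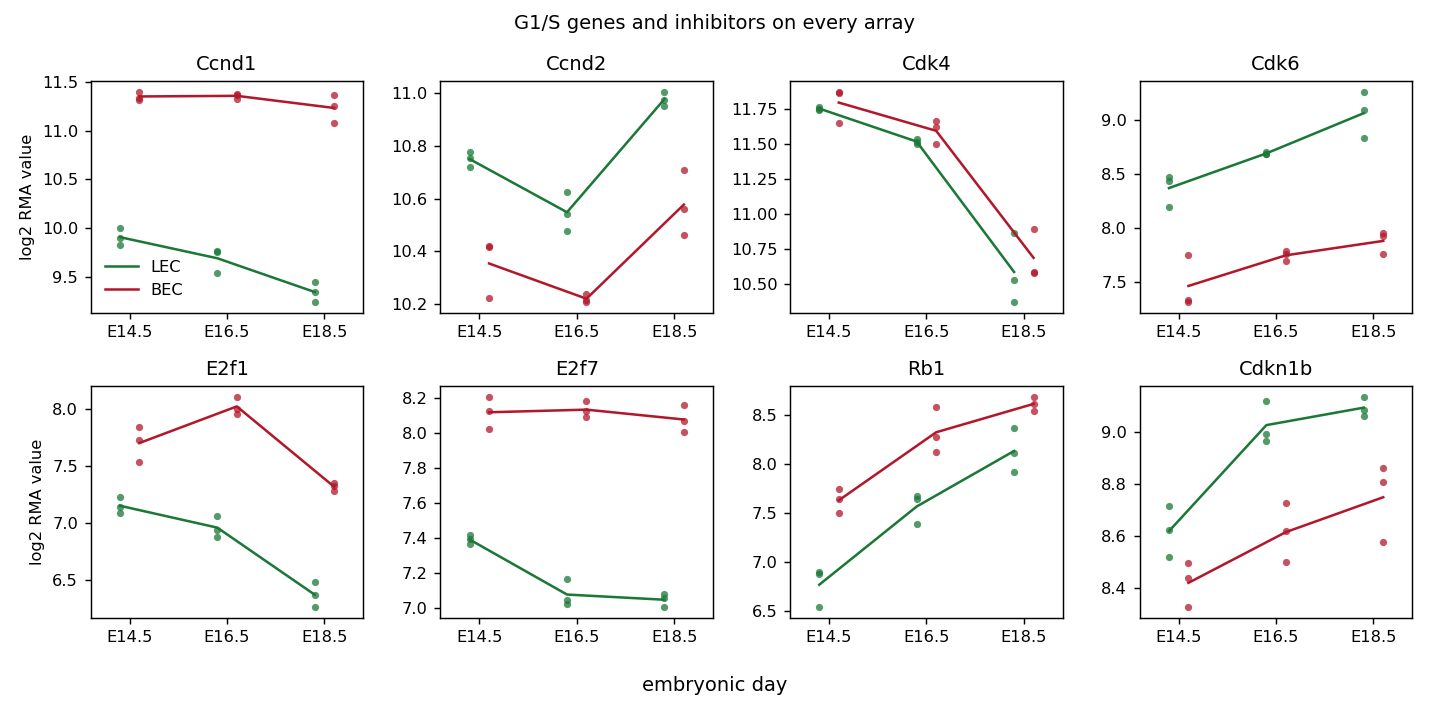
Log2 RMA values (vertical axes, scaled for each gene) of G1/S regulators and inhibitors on every array at each age; points are arrays, LEC in green and BEC in red, and lines join group means. Ccnd1, E2f1, E2f7 and Rb1 lie lower in LEC at every age, Ccnd2 lies higher, Cdk4 falls in both, and Rb1 rises in both.

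Of the 6 inhibitors and repressors, 2 rose and 2 fell in LEC from E14.5 to E18.5, beside 19.7% of all genes higher and 21.2% lower, and 4 rose in BEC, beside 13.3% higher. With so few genes, the LEC counts show nothing apart from all genes. Rb1, the retinoblastoma gene, read 6.87, 6.89 and 6.54 at E14.5, then 7.64, 7.67 and 7.39 at E16.5, then 8.11, 8.37 and 7.92 at E18.5 in LEC. BEC arrays read 7.74, 7.50 and 7.64 at E14.5, then 8.12, 8.58 and 8.28 at E16.5, then 8.54, 8.62 and 8.69 at E18.5 for Rb1. It rose in LEC by 1.37 ± 0.14 (adjusted p = 3.3e-07) and in BEC by 0.99 ± 0.14 (adjusted p = 2.4e-05), and every LEC array lay below every BEC array of its age. Between the cell types it differed by -0.86, -0.76 and -0.48 from the earliest age to the latest, the last not called without LEC E18.5 replicate 3 (-0.38) or with array weights (-0.50). Its relative Rbl1, which encodes p107, read 8.62, 8.67 and 8.61 at E14.5, then 8.60, 8.59 and 8.53 at E16.5, then 8.45, 8.69 and 8.30 at E18.5 in LEC. BEC arrays read 8.54, 8.35 and 8.46 at E14.5, then 8.60, 8.72 and 8.56 at E16.5, then 8.78, 8.62 and 8.80 at E18.5 for Rbl1. The BEC change of 0.28 was called, lost in 14 of 26 alternatives, and the LEC change of -0.15 was not called.

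Cdkn1b, which encodes the kinase inhibitor p27, read 8.62, 8.52 and 8.72 at E14.5, then 8.99, 9.12 and 8.97 at E16.5, then 9.14, 9.09 and 9.06 at E18.5 in LEC. BEC arrays read 8.33, 8.44 and 8.50 at E14.5, then 8.62, 8.73 and 8.50 at E16.5, then 8.58, 8.86 and 8.81 at E18.5 for Cdkn1b. LEC lay above BEC on all arrays at each age, called at E16.5 (0.41) and E18.5 (0.35), the E18.5 call being lost without BEC E18.5 replicate 1 (0.26) and with array weights (0.33). A second probe row of Cdkn1b, with a mean of 7.53, gave 0.13 at E16.5, and with both rows averaged the E16.5 difference was 0.27 and no longer called. It rose with age in LEC (0.48 ± 0.10, adjusted p = 0.00088). The rise in BEC (0.33) lost its call without replicate 1 of BEC E14.5 (0.28) and without replicate 2 (0.27) or 3 (0.30) of BEC E18.5. On the second row Cdkn1b changed by 0.61 in LEC and 0.71 in BEC over the same ages. Cdkn2c, an inhibitor of Cdk4 and Cdk6, read 6.28, 6.42 and 6.42 at E14.5, then 6.84, 6.65 and 6.83 at E16.5, then 6.82, 6.41 and 6.97 at E18.5 in LEC. BEC arrays read 5.89, 6.08 and 6.21 at E14.5, then 6.61, 6.997 and 6.65 at E16.5, then 6.67, 6.99 and 7.02 at E18.5 for Cdkn2c. It rose in BEC (0.83 ± 0.15, adjusted p = 0.0002), already by E16.5 (0.69), and gave 0.36 ± 0.15 in LEC, not called.

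The repressors E2f7 and E2f8, which shut off E2F targets late in S phase, lay on opposite sides of BEC at E14.5. E2f7 read 7.42, 7.37 and 7.39 at E14.5, then 7.03, 7.05 and 7.17 at E16.5, then 7.01, 7.06 and 7.08 at E18.5 in LEC. BEC arrays read 8.21, 8.03 and 8.12 at E14.5, then 8.19, 8.12 and 8.09 at E16.5, then 8.004, 8.07 and 8.16 at E18.5 for E2f7. All 9 LEC arrays lay below all 9 BEC arrays, by -0.73 ± 0.09, -1.06 ± 0.09 and -1.03 ± 0.09 at the 3 ages, and its change to E18.5 was -0.34 in LEC, called, and -0.04 in BEC, not called. With quantile normalization the LEC value was -0.18 and no longer called. E2f8 read 8.28, 8.17 and 8.06 at E14.5, then 7.69, 7.89 and 7.86 at E16.5, then 7.56, 7.41 and 7.38 at E18.5 in LEC. BEC arrays read 7.71, 7.69 and 7.61 at E14.5, then 7.47, 7.72 and 7.58 at E16.5, then 7.26, 7.72 and 7.49 at E18.5 for E2f8. It was higher in LEC at E14.5 (0.49 ± 0.12, adjusted p = 0.0043), fell in LEC to E18.5 (-0.72 ± 0.12) and differed by -0.04 at E18.5.

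Set against BEC of the same age, LEC had 3 of the 54 genes higher and 7 lower at E14.5 (median 0.10), beside 8.60% of all genes higher and 7.94% lower. No replication gene was called there by limma, nor had any an unadjusted p under 0.05, and of the mitosis genes only Cdk1 and Mybl2 were called. At E16.5, 3 were higher and 13 lower (median -0.16), beside 13.0% and 12.2%. At E18.5, 4 were higher and 24 lower (median -0.24), beside 14.6% and 15.9%, among them 7 replication and 13 mitosis genes lower. With dim genes left out, 2577 of 13808 genes were lower in LEC at E16.5 and 3166 at E18.5. All 22 mitosis genes had a value below 0 at E18.5, Cenpe by only -0.001. Signs were not counted over all genes, whose median was -0.04. With only the 6 arrays of E18.5 in the fit, the count of 28 calls came to 14. Those held in all 27 alternatives were Ccnd1, E2f1, Rrm2, Tyms, Tk1, Cdk1, Aurkb, Bub1b, Plk1, Tpx2, Foxm1, Mybl2 and E2f7 on the lower side and Cdk6 on the higher side. Over the same ages the macrophage, mast cell, leukocyte and keratinocyte markers summed higher in LEC and the mural markers summed higher in BEC. The part of these cells in the differences was not tested.

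The difference between the 2 changes was tested directly, as the change in LEC minus that in BEC. From E14.5 to E18.5, 13 of the 54 genes fell further in LEC and none less (median difference -0.36), beside 3.83% of all genes lower and 5.02% higher (median -0.01). The 13 were the replication genes Rrm2 (-0.84 ± 0.13, adjusted p = 0.00023), Tyms (-0.83 ± 0.21), Mcm7 (-0.62 ± 0.16) and Tk1 (-0.62 ± 0.19), the mitosis genes Plk1 (-0.74 ± 0.13, adjusted p = 0.0007), Ccna2, Bub1b, Ccnb2, Cdk1 (-0.56 ± 0.14), Aurkb, Mki67 and Top2a, and E2f8. Rrm2, Tyms, Plk1 and Cdk1 kept their call in all 27 alternatives. With both probe rows averaged the Top2a difference turned to 0.24. The second probe row of Tk1 alone gave a difference of -0.28. The design text describes LEC and BEC matched within litters, but no label says that the replicate numbers mark litters. With same-numbered arrays as a fixed block the count was 7, and with only the compared groups 5. It was 5 without LEC E14.5 replicate 1, 7 without BEC E14.5 replicate 1, and 8 without LEC E14.5 replicate 3, without BEC E14.5 replicate 2 or without BEC E18.5 replicate 3. Of the 54 genes, 45 had a difference below 0, all 22 mitosis genes among them, Birc5 by only -0.005. Signs were not counted over all genes.

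By step, the first gave 1 gene, Rrm2 (-0.49 ± 0.13 by limma, adjusted p = 0.045), beside 0.742% of all genes lower and 1.89% higher, and that call was lost when any 1 of 13 arrays was left out. In that step 49 of 54 genes had a difference below 0, with a median of -0.27 against 0.02 over all genes. The second step gave no call by limma, 8 genes having an unadjusted p under 0.05 (3 above 0 and 5 below) and 3 alternatives giving 1 call each, beside 2.12% lower and 1.53% higher, with a median of -0.10.

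Other genes of the same machinery, listed by role, fell as well. These lists were chosen with earlier results of these data known, so their counts are no independent check. Of 38 further replication genes, 37 fell in LEC (median -0.94) and 32 in BEC (median -0.60) from E14.5 to E18.5, and none rose, beside 21.2% and 17.3% of all genes lower. In the first step 24 fell in LEC and 1 in BEC, beside 5.72% and 4.66% of all genes. Rfc2, a subunit of the clamp loader, fell by 1.52 in LEC and 0.90 in BEC. The dUTPase gene Dut fell by 1.28 and 0.87, and Gmnn, the geminin gene that blocks relicensing, by 1.10 and 0.97, LEC first. The exonuclease gene Exo1 changed by -1.40 in LEC and -0.75 in BEC. Of 45 further mitosis genes, 36 fell and 1 rose in LEC (median -0.68), and 18 fell and 1 rose in BEC (median -0.28), beside the same shares of all genes to E18.5. The kinase subunit genes Cks2 (-2.03 in LEC and -1.67 in BEC) and Cks1b (-1.73 and -1.45) fell in both cell types. Espl1, the separase gene, fell by 1.66 and 0.86, and the kinetochore gene Spc24 changed by -1.54 and -1.25. The one that rose was Pttg1, the gene of securin, which holds separase back (0.46 in LEC and 0.42 in BEC). Against BEC at E18.5, 18 of the 38 and 25 of the 45 were lower in LEC, beside 15.9% of all genes.

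Of 21 further inhibitors and repressors, 6 were higher and 6 lower in LEC from E14.5 to E18.5, beside 19.7% and 21.2% of all genes, and 4 were higher and 3 lower in BEC, beside 13.3% and 17.3%. These counts lie near those shares and are no result about the list. Cdkn2d, a relative of Cdkn2c, fell in LEC (-1.13 ± 0.13) and gave 0.12 ± 0.13 in BEC (difference -1.26 ± 0.19, adjusted p = 0.00018). The flow-responsive factor Klf2, known to hold endothelial cells quiescent, rose in LEC (0.95) and BEC (0.85), as did the antiproliferative gene Btg2 (0.73 and 0.85). The repressor E2F genes E2f4 (-0.97 and -0.64) and E2f6 (-0.50 and -0.48) fell in both.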

How the data were processed

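Total RNA of 18 samples was measured on arrays. Per the submitters' processing notes the values were made with oligo 1.54.1 and RMA, and the authors deposited them as log2 values, 1 column per array. Of 35556 probe rows, 21789 name exactly 1 gene symbol in the platform annotation and 1621 name several. The brightest row of a gene was kept, which left 19938 genes. limma 3.58.1 in R 4.3.3 fitted 6 group means to the 18 arrays (12 residual degrees of freedom, moderated with 6.11 prior degrees of freedom), with 12 contrasts, each two-sided, with Benjamini-Hochberg adjustment across all 19938 genes. An error after ± is limma's standard error, with n = 3 arrays in each group. The number of arrays limits the precision. On simulated data for the change from E14.5 to E18.5 in LEC, 200 of 19938 genes were changed. The same fit recovered 36 of 100 genes changed by 0.5 and 90 of 100 changed by 1, with 7 false calls among the unchanged genes. In the real data 40.87% of genes were called there, so the adjustment worked at another cut-off and these recoveries need not carry over.

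The 56 genes and the lists were chosen with earlier results of these data known. Values on every array are given for a fixed set of 10 genes, of which 9 were measured, and for the 2 genes of each role with the largest absolute limma t in the changes to E18.5 in LEC and BEC, in their difference, and between LEC and BEC at E18.5. Of the wider lists, the 3 called genes with the largest absolute t in each change are named; Pttg1 was named after its values were seen. Same-numbered LEC and BEC arrays deviated together with correlations of -0.107 to 0.130, so the numbers were not taken as pairs. In an alternative, the same-numbered arrays of each age formed a block, fixed or random, though no label says that the numbers mark litters. Other alternatives were a common median, quantile normalization, dim genes left out, the mean of all rows, only the compared groups, array weights, a variance trend and each array left out. A fit with no E18.5 arrays was chosen after seeing the data.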

Additional observations from a re-analysis of the deposited data

Results flagged for a closer look

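The changes with age differed between LEC and BEC by limma's test of the difference for these genes, each value being the change in LEC minus that in BEC on the log2 scale. From E14.5 to E16.5 this was Rrm2 (-0.49, adjusted p = 0.045). From E14.5 to E18.5 the replication genes were Rrm2 (-0.84), Tyms (-0.83), Mcm7 (-0.62) and Tk1 (-0.62, adjusted p = 0.047). The mitosis genes were Plk1 (-0.74), Ccna2 (-0.62), Bub1b (-0.60), Ccnb2 (-0.56), Cdk1 (-0.56), Aurkb (-0.52), Mki67 (-0.49) and Top2a (-0.47). With both probe rows of Top2a averaged, its difference turned to 0.24. The second probe row of Tk1 alone gave -0.28. The repressor gene E2f8 differed by -0.53 (adjusted p = 0.0498), close to the threshold. Groups of 3 arrays were too small to look for single arrays that stand apart.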

How the results depend on the processing

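Counts of calls moved more than single values. Between LEC and BEC at E18.5, 28 calls became 14 with only the compared groups. From E14.5 to E16.5 in BEC, 8 calls became 4 with a common median and 14 with array weights, and ran from 2 to 8 with single arrays left out. For the difference of the E14.5 to E16.5 changes, 1 call became 0 with same-numbered arrays as a fixed block. It became 3 with a common median or without dim genes, and 5 with array weights. It became 4 with only the compared groups, with a robust variance trend or without the E18.5 arrays. That count ran from 0 to 2 with single arrays left out. For the E16.5 to E18.5 changes, 0 calls became 1 with quantile normalization, without dim genes or with a robust variance trend. For the E14.5 to E18.5 changes, 13 calls became 7 with same-numbered arrays as a fixed block and 5 with only the compared groups. They ran from 5 to 15 with single arrays left out. Same-numbered arrays as a random block moved no count by over 1.5 times. The causes were not tested. Averaging all probe rows reversed Top2a, to 0.061 between LEC and BEC at E18.5 and to 0.242 for the difference of its changes to E18.5. All other counts stayed within 1.5 times under every alternative run, and no other gene reversed a called value. A common median moved the median of all genes between LEC and BEC at E16.5 to -0.109, against -0.002, and the share of higher among all called genes there to 35.6%, against 51.5%. That share came to 74.1% against 52.2% for E14.5 to E16.5 in BEC, where 3 of 4 called genes of the set were higher against 3 of 8, to 34.1% against 49.1% for E16.5 to E18.5 in BEC, and for the differences of the steps to 53.9% against 71.8% and 61.4% against 42.0%. Dim signal did not limit the rows used, since on these every gene lay above the bound for dim genes on all arrays. The second probe row of Top2a had a mean below that bound.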
